A study of Mus musculus with 4 samples.

Results

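The 34 genes described here are immediate early genes and the dual-specificity phosphatases that switch off mitogen-activated protein (MAP) kinases. They were taken by name and are 34 of the 18193 genes named on the array, in 5 families. The AP-1 family is represented by Fos, Fosb, Fosl1, Fosl2, Jun, Junb, Jund, Atf3, Maff and Mafk. The other transcription factors are Egr1, Egr2, Egr3, Nr4a1, Nr4a2, Nr4a3, Klf2, Klf4, Klf6, Klf10 and Myc. Further early genes are Ier2, Ier3, Ier5, Btg2, Zfp36 and Csrnp1, and the phosphatases are Dusp1, Dusp2, Dusp4, Dusp5, Dusp6, Dusp8 and Dusp10. All 34 had at least 1 probe set (a group of array probes for the same transcript) annotated to that symbol alone, 59 probe sets in all. For 19 genes there was 1 probe set and for 15 there were several.

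The arrays carried RNA of Kupffer cells, which are the macrophages resident in liver, and of SL4, a mouse colon carcinoma line on the C57BL/6 background. Kupffer cells came from 12-week-old female C57BL/6 mice and were sorted as CD45+ CD11b+ F4/80+ cells. The 4 groups, of 1 array each, were Clec4n-/- (Dectin-2 KO) Kupffer cells co-cultured with SL4, Clec4n-/- Kupffer cells cultured separately from SL4, wild-type Kupffer cells co-cultured with SL4 and wild-type Kupffer cells cultured separately from SL4. Clec4n encodes Dectin-2, a receptor for fungal and other glycans on myeloid cells, and only the Kupffer cells carried its deletion. Each culture held 100000 cells of each type and was lysed after 8 hours, the only time measured. In the separate groups the RNA of the Kupffer cells and of SL4 was mixed afterwards, so every array held RNA of both cell types. The number of mice behind each array is not given in the sources used here.

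Immediate early genes are transcribed within minutes of a stimulus without new protein synthesis, through factors such as SRF, CREB and NF-kappaB that are already in the cell. Most of their products are transcription factors that drive the next wave of genes, and many of their RNAs are short-lived, so that levels peak and fall again within hours. The Dusp phosphatases remove the activating phosphates from the MAP kinases ERK, JNK and p38 and so belong to the negative feedback of the same pathways. In macrophages these genes are known for their part in the response to microbial and danger signals, and in tumour lines several of them are held high by growth factor signalling.

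Values are MAS5 signals, a linear measure of brightness, and a ratio was taken between single arrays. Signals were first raised to a floor of 76.1, which is the median over every probe set and array. A gene stands by its brightest probe set, and signals of different genes are not compared, since probes differ in brightness. A ratio with the dimmer array at or under the floor is a lower bound, written as "at least". Genes at least 2-fold apart were counted, and because each group had 1 array no difference was tested and no p-value is given. Of the 34 genes, 28 lay above the floor in all 4 arrays, Fos, Fosb, Atf3 and Btg2 in some, and Nr4a3 and Dusp8 in no array. For 6 of the 32 above the floor somewhere, namely Fos, Fosb, Junb, Atf3, Nr4a1 and Btg2, the brightest array was under 2 times the floor, so a 2-fold difference could not be reached.

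The number of genes above the floor was 10117 to 10187 in each array, and array medians ranged from 72.5 to 78.4. Clec4n itself was far under the floor everywhere, with 8.19 and 8.29 in knockout co-culture and separate culture and 17.6 and 14.2 in wild-type co-culture and separate culture for its brighter probe set, so it checks the labels only weakly. Many defining markers of the sorted cells were dim. Of 17 pan-macrophage and leukocyte markers, 10 lay above the floor in at least 1 array, and Ptprc, Itgam and Adgre1, the genes of the 3 sort markers, did so in none. Of 10 Kupffer cell markers 5 did, and Clec4f, Timd4, Vsig4 and Marco did not. Of 12 epithelial and colon carcinoma markers 3 did, and Cdh1, Krt8, Krt18 and Krt19 did not, while 9 of 11 mesenchymal markers lay above it. In these mixed samples fewer cells of a type and less RNA per cell cannot be told apart, nor can the cell type that a transcript came from.

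**Figure D1:**
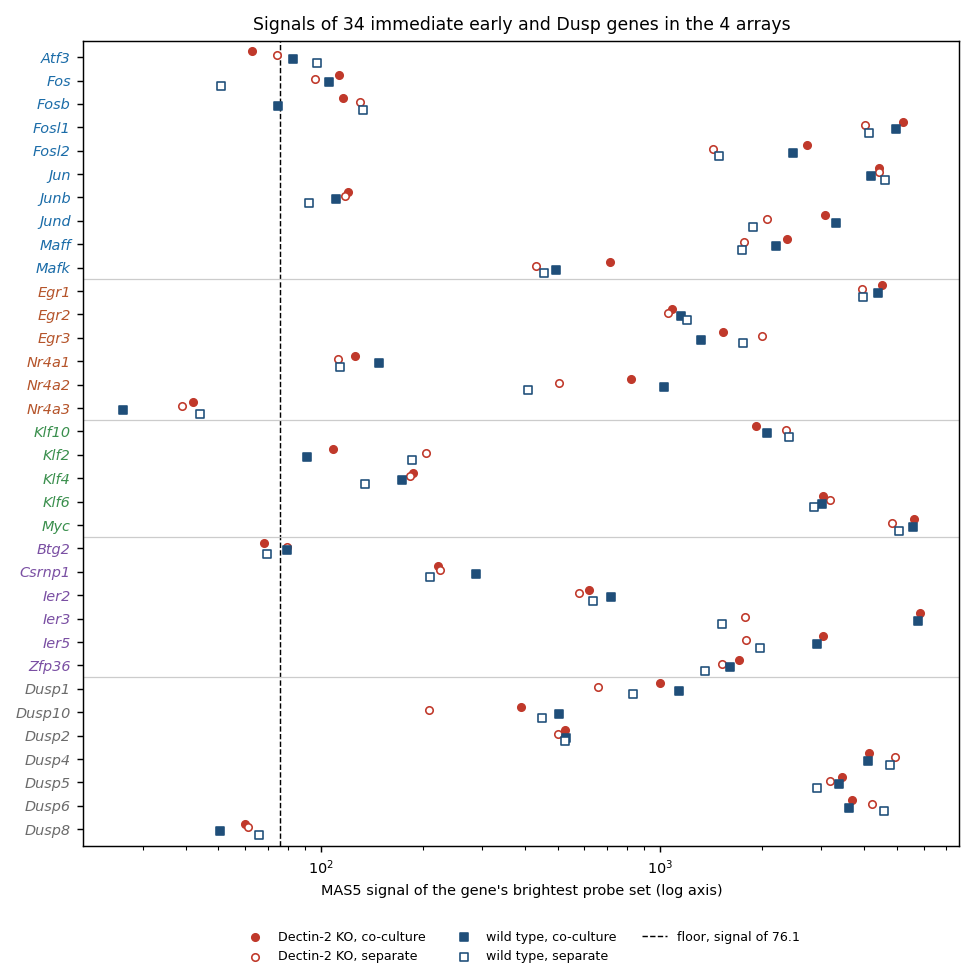
MAS5 signal (log axis) of the brightest probe set of each of the 34 genes in the 4 arrays, with filled symbols for co-culture, open symbols for separate culture, circles for Dectin-2 KO and squares for wild type; the dashed line is the floor of 76.1. For Ier3 both filled symbols, at 5842 and 5763, lie well to the right of the open ones, at 1781 and 1525, while for Klf2 they lie to the left, and gene names are coloured by family.

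Co-culture over separate culture, made once in each genotype from arrays that are not shared, asks what culture together with tumour cells did to these genes. With knockout Kupffer cells 1 of the 31 genes above the floor, Ier3, was at least 2-fold higher and 0 were at least 2-fold lower. Over all 10444 genes 0.67% were that much higher and 0.574% that much lower. With wild-type Kupffer cells Ier3 and Nr4a2 were at least 2-fold higher and Klf2 at least 2-fold lower, 2 and 1 of 32 genes, where 0.701% and 0.538% of 10417 genes were. At 1.5-fold, 7 were higher and 1 lower in knockout, against 2.5% and 4.28% of all genes, and 4 were higher and 2 lower in wild type, against 3.31% and 3.39%. The median log2 ratio was 0.12 over 31 genes in knockout and 0.17 over 32 in wild type, while all genes had medians of -0.02 in both.

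Cell type markers also differed between the culture conditions. The summed signal of the 17 pan-macrophage markers was 2249 in knockout co-culture and 2256 in knockout separate culture, and 2351 in wild-type co-culture and 1944 in wild-type separate culture. That of the 10 Kupffer cell markers was 2752 and 2598 in knockout co-culture and separate culture, and 2846 and 2690 in wild-type co-culture and separate culture, most of it from Id3. Over the 9 markers without Id3 it was 520.5 and 638 in knockout co-culture and separate culture, and 636 and 550.1 in wild-type co-culture and separate culture, so that the knockout pair turned round. That of the 11 mesenchymal markers was 29032 and 30424 in knockout co-culture and separate culture, and 30510.0 and 34314 in wild-type co-culture and separate culture. Vim, the brightest of them, ran against this sum in knockout, at 13568 in co-culture and 12614 in separate culture. The sum of the 12 epithelial and colon carcinoma markers was 1145 and 1035 in knockout co-culture and separate culture, most of it from Spint1. In wild type the epithelial sum was 1117 and 1062. The macrophage sum was thus higher in co-culture in wild type and level in knockout. Its brightest markers, Cd53 and Laptm5, were dimmer in knockout co-culture, at 615 and 409.8, than in knockout separate culture, at 719 and 501.7. Of the 10 macrophage markers above the floor, 6 had ratios above 0 in knockout and 4 below. In wild type 7 were above 0 and 3 below, so the level knockout sum does not describe most of these markers. The mesenchymal sum was lower in co-culture in both genotypes, and the epithelial sum higher in both. In knockout the epithelial direction rested on Spint1, at 869 in co-culture and 667 in separate culture. Of the 3 epithelial markers above the floor, 2 were higher in knockout co-culture. The other, Epcam, was lower, at 43.9 in co-culture, under the floor, and 124 in separate culture. The part of the cell mixture in the ratios of the 34 genes was not tested.

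The order of the 4 arrays was set out gene by gene. In 15 of the 32 genes above the floor somewhere both co-culture arrays were brighter than both separate arrays, which held for 19.6% of 10637 genes. In 6, namely Fosb, Egr3, Klf2, Klf10, Dusp4 and Dusp6, both co-culture arrays were dimmer than both separate arrays, which held for 25.6% of all genes. In the rest the arrays of the culture conditions overlapped. Of the 31 genes with a ratio in both genotypes, 20 were above 0 in both, against 28.6% of all genes, and 6 below 0 in both, against 35.2%. The genes were chosen with earlier results of these arrays known, so these shares describe the arrays and are no test.

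**Figure D2:**
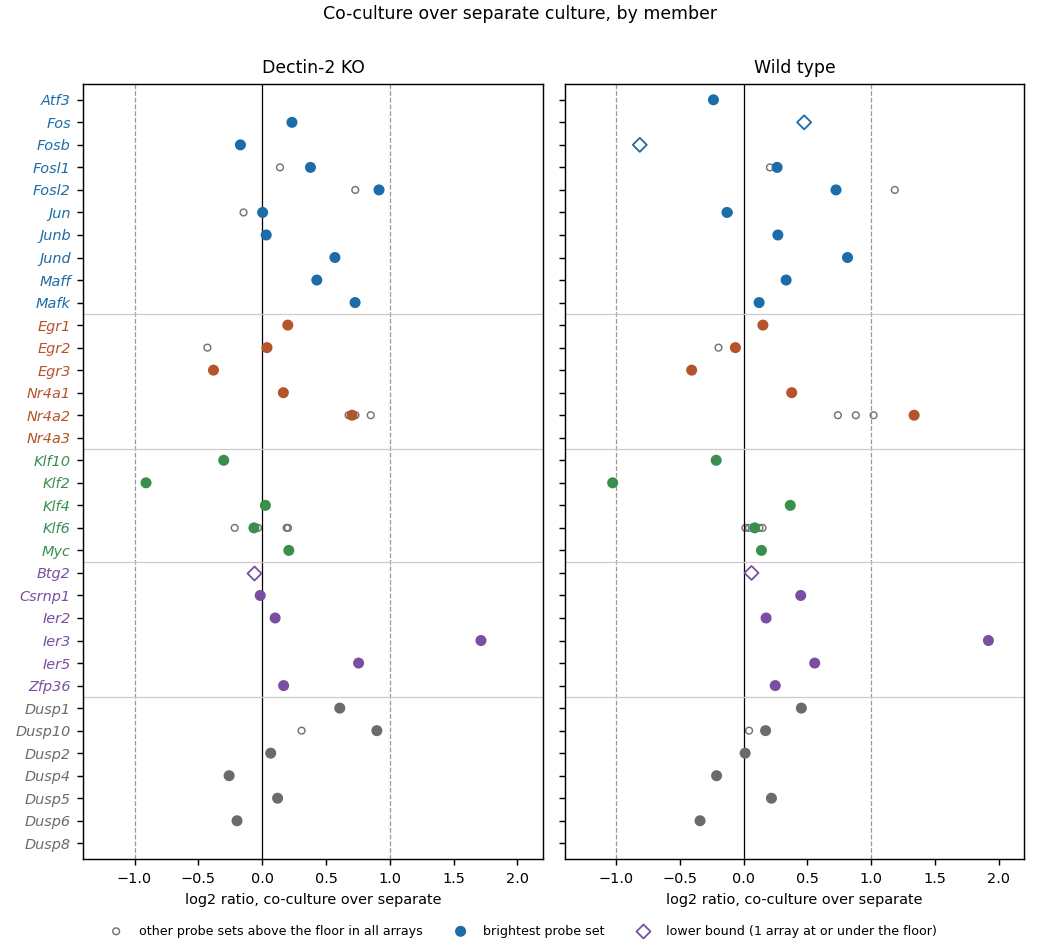
Log2 ratio of co-culture over separate culture for each gene, with Dectin-2 KO on the left and wild type on the right. Filled points are the brightest probe set, open diamonds lower bounds, small open circles other probe sets above the floor in all arrays, and dashed lines mark 2-fold; Ier3 stands farthest to the right in both panels, at 1.71 and 1.92, and Klf2 farthest to the left, at -0.91 and -1.03.

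Ier3, a stress-induced regulator of cell survival and a known NF-kappaB target, had the highest ratio of these genes in both genotypes. Its single probe set read 5842 in knockout co-culture and 1781 in knockout separate culture, and 5763 in wild-type co-culture and 1525 in wild-type separate culture. Both co-culture arrays stood far above both separate ones, by 3.28-fold in knockout and 3.78-fold in wild type. Only 15 of 10444 genes had a higher ratio in knockout and 13 of 10417 in wild type.

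Nr4a2, an orphan nuclear receptor induced in macrophages by inflammatory signals, read 823 in knockout co-culture and 505 in knockout separate culture, and 1031 in wild-type co-culture and 408 in wild-type separate culture. It was higher in co-culture in both genotypes, by 1.63-fold in knockout and 2.52-fold in wild type. The brightest of its 6 probe sets is of a kind that may also match other transcripts (its ID ends in _s_at). The other 3 probe sets above the floor in all arrays had ratios of 1.60-fold to 1.80-fold in knockout and 1.67-fold to 2.03-fold in wild type. All 4 thus pointed the same way, and without the _s_at probe set the wild-type ratio was 1.84-fold and the 2-fold call was lost. Of the related receptors, Nr4a1 had log2 ratios of 0.17 and 0.38 in knockout and wild type, close to the floor, and Nr4a3 lay under it.

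Fosl2, which encodes the Fos family protein Fra-2, read 2717 in knockout co-culture and 1441 in knockout separate culture, and 2467 in wild-type co-culture and 1494 in wild-type separate culture. Both co-culture arrays were brighter than both separate ones, 1.89-fold in knockout and 1.65-fold in wild type, short of 2-fold in each. Its second probe set read 352 and 212 in knockout co-culture and separate culture and 523 and 230 in wild-type co-culture and separate culture, 1.66-fold and 2.27-fold higher. The wild-type call thus depended on the probe set, while the direction was the same in all 4 ratios.

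Klf2, a Krüppel-like factor of quiescent endothelial cells, lymphocytes and monocytes that restrains inflammatory genes, went the other way. Its probe set read 109 in knockout co-culture and 204 in knockout separate culture, and 91.3 in wild-type co-culture and 186 in wild-type separate culture. Both co-culture arrays were dimmer than both separate arrays, 1.88-fold in knockout and 2.04-fold in wild type, and only 94 and 52 genes had a lower ratio. With a minimum of 4 times the floor for the brighter array Klf2 no longer entered the comparison. The 6 liver endothelial markers lay under the floor in every array.

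These 4 genes were the ones at least 1.5-fold apart in the same direction in both genotypes, which 1.19% of 10224 genes were upward and 1.28% downward. The 250 bases before their RefSeq transcription starts (mouse build GRCm38.p6) are shown because the genes moved alike in both genotypes. They are written 5′ to 3′ along the gene's strand. Capitals mark matches, on either strand, to the consensus of NF-kappaB (kappaB), to TGACG, the core of the cAMP response element (CRE) that CREB and ATF proteins bind, to TGANTCA, the AP-1 site, or to the CArG box of SRF.
Ier3, chr17:35821463-35821712, plus strand: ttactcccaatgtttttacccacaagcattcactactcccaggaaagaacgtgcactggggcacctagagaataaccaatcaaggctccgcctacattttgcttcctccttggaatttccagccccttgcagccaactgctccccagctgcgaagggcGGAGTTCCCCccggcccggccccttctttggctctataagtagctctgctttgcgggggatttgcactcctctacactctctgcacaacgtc
Nr4a2, chr2:57124004-57124253, minus strand: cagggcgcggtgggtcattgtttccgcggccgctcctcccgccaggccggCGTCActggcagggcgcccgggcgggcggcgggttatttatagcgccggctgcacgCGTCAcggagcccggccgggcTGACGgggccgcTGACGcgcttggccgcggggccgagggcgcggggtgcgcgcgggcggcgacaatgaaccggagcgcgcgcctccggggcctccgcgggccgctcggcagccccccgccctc
Fosl2, chr5:32136222-32136471, plus strand: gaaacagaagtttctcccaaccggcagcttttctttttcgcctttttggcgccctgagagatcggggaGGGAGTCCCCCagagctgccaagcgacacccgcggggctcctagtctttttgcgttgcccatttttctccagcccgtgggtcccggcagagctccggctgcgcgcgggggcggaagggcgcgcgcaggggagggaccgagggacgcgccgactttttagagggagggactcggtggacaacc
Klf2, chr8:72318812-72319061, plus strand: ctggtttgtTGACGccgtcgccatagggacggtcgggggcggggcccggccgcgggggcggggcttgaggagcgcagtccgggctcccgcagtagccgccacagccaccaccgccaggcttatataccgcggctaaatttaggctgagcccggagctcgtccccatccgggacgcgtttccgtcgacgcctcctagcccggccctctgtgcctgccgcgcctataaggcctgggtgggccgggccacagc

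In Ier3 the capitals are 1 kappaB match, 83 to 92 bases before the start on the opposite strand. In Fosl2 they are a single stretch, 172 to 182 bases before the start. It gave 3 overlapping kappaB matches, of which those at 173 to 182 are the same bases read on each strand. The other lies at 172 to 181 on the opposite strand. Nr4a2 held no kappaB match but 4 matches to TGACG, 2 on each strand, and Klf2 held 1. None of the 4 windows held TGANTCA or a CArG box. RefSeq gave a window for 27 of the 34 genes, and a gene with several starts was counted once if any window matched. TGACG was found in 17 of the 27 (63.0%), against 19.8% of 27025 genes and 32.0% of the 8693 with a window that lay above the floor on the arrays. The 27 were not limited to genes above the floor, and the 17 included Dusp8 and Nr4a3, which lay under it in every array. The kappaB consensus was found in 6 (22.2%), against 8.23% and 10.7%, in Egr2, Fos, Fosb, Fosl2, Ier3 and Maff. A CArG box stood in 3 (11.1%), namely Dusp5, Egr2 and Zfp36, against 1.62% and 1.47%, and TGANTCA in 1 (3.70%), Csrnp1, against 7.82% and 5.41%. A match is a string of letters and says nothing of binding in these cells.

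**Figure D3:**
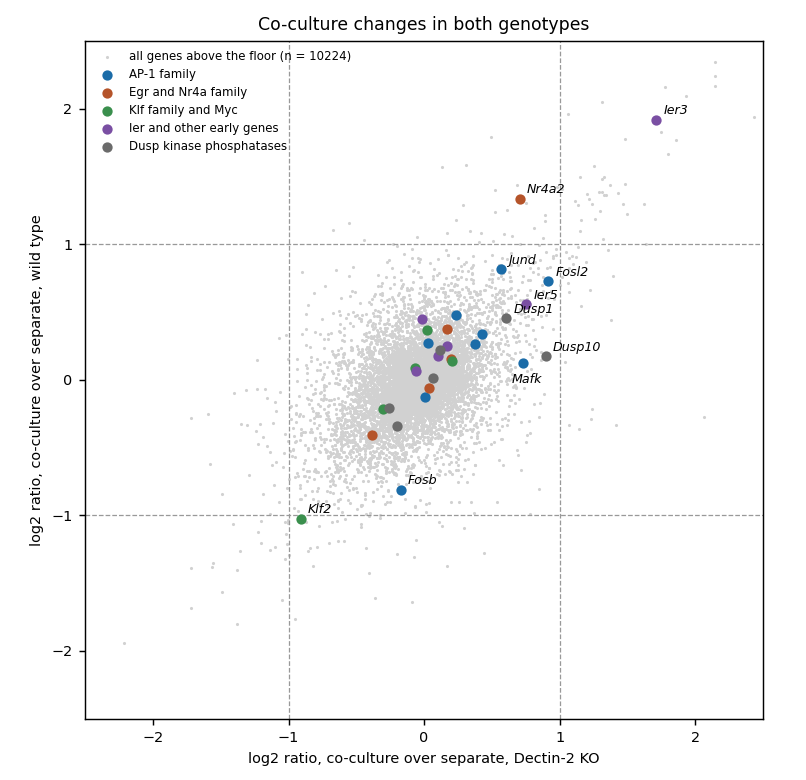
Log2 ratio of co-culture over separate culture in Dectin-2 KO (x axis) against wild type (y axis), with all 10224 genes that have both ratios in grey and the 31 such members coloured by family; names are given at 1.5-fold or more in either genotype, dashed lines mark 2-fold, and 5 genes lie outside the axes. Ier3, Nr4a2, Fosl2 and Jund lie in the upper right and Klf2 in the lower left, while Mafk and Dusp10 lie to the right near a wild-type ratio of 0.

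Among the other AP-1 genes the responses were unequal. Jund, the Jun protein that most cells make at rest, read 3072 in knockout co-culture and 2069 in knockout separate culture, and 3310.4 in wild-type co-culture and 1883 in wild-type separate culture. Both co-culture arrays were brighter, 1.48-fold in knockout and 1.76-fold in wild type. Its second probe set lay under the floor in all 4 arrays. Jun, by contrast, read 4433 and 4423 in knockout co-culture and separate culture and 4209 and 4606 in wild-type co-culture and separate culture, so that the culture conditions overlapped. Its second probe set had log2 ratios of -0.15 in knockout and -0.12 in wild type. Junb lay close to the floor, with log2 ratios of 0.03 and 0.27.

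Fosl1, which encodes Fra-1, was brighter in both co-culture arrays by a small margin. It read 5234 in knockout co-culture and 4028 in knockout separate culture, and 4987 in wild-type co-culture and 4158 in wild-type separate culture. The ratios were 1.30-fold and 1.20-fold, and its second probe set, at 1.10-fold and 1.15-fold, pointed the same way. Maff, a small Maf protein with no activation domain of its own, was 1.35-fold and 1.26-fold higher, at 2380.4 and 1769 in knockout co-culture and separate culture and 2210.4 and 1755 in wild-type co-culture and separate culture. Its relative Mafk was 1.66-fold higher in knockout, at 713 and 431 in co-culture and separate culture, but 1.09-fold higher in wild type, at 496 and 456. The knockout co-culture array thus stood apart from the other 3 for Mafk.

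The classical early genes Fos, Fosb and Atf3 were all dim. Fos read 113 in knockout co-culture and 96.5 in knockout separate culture, and 106 in wild-type co-culture and 51.0 in wild-type separate culture, the last under the floor. In co-culture it was 1.18-fold higher with knockout cells, and at least 1.39-fold higher with wild-type cells. Without the floor the wild-type log2 ratio of Fos was 1.05, past 2-fold, but it then rests on a signal in the range where no ratio is given here. Fosb read 116 and 131 in knockout co-culture and separate culture and 75.1 and 134 in wild-type co-culture and separate culture, at least 1.76-fold lower in wild type. Atf3, a stress-induced repressor and activator, read 63.0 and 74.5 in knockout co-culture and separate culture, both under the floor, and 83.0 and 97.7 in wild-type co-culture and separate culture. None of these 3 could have reached 2-fold above the floor.

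The Egr zinc-finger factors, classical targets of ERK and SRF, differed little between the culture conditions. Egr1 read 4527 in knockout co-culture and 3939 in knockout separate culture, and 4408 in wild-type co-culture and 3969 in wild-type separate culture. Both co-culture arrays were brighter, by 1.15-fold and 1.11-fold. Egr3 ran the other way, with 1538 and 2003 in knockout co-culture and separate culture and 1326 and 1757 in wild-type co-culture and separate culture, 1.30-fold and 1.33-fold lower. Its second probe set lay near or under the floor and was lower in knockout, at 82.5 and 109 in co-culture and separate culture. In wild type it was at least 1.19-fold higher, at 90.9 and 19.9, the last under the floor. Egr2 overlapped between the conditions, with log2 ratios of 0.04 in knockout and -0.06 in wild type, and its second probe set was at -0.43 and -0.20. Egr1 and Egr3 thus differed in sign, by small ratios that were not tested. The brightest probe set of Egr2 gave no clear direction, while its second was lower in both genotypes, as Egr3 was.

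Among the Klf genes and Myc only Klf2 was 1.5-fold apart. Klf10, an early gene of the TGF-beta response, was lower in both genotypes, at 1918 and 2364 in knockout co-culture and separate culture and 2069 and 2401 in wild-type co-culture and separate culture, 1.23-fold and 1.16-fold. Klf6, with 5 probe sets, had log2 ratios between -0.22 and 0.20 over all of them in knockout and between 0.01 and 0.15 in wild type. Klf4, a regulator of macrophage activation, had ratios of 0.03 and 0.37, and of 0.18 and at least 0.57 in its second probe set. Myc, the growth-promoting factor that MAP kinase signalling induces and stabilises, read 5610.2 and 4855 in knockout co-culture and separate culture and 5589 and 5072 in wild-type co-culture and separate culture. Its ratios of 1.16-fold and 1.10-fold were small, although both co-culture arrays were brighter.

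Ier5, an early gene that modulates the heat shock response, was the next after Ier3 among the remaining early genes. It read 3035 in knockout co-culture and 1798 in knockout separate culture, and 2903 in wild-type co-culture and 1973 in wild-type separate culture, 1.69-fold and 1.47-fold higher. Its other 2 probe sets read at most 93.6 in any array. Zfp36, or tristetraprolin, which marks inflammatory mRNAs for decay, was 1.12-fold and 1.19-fold higher, and Ier2 1.07-fold and 1.13-fold. Csrnp1 was 1.36-fold higher in wild type, at 287 in co-culture and 210.4 in separate culture, and read 223 and 225 in knockout co-culture and separate culture. Btg2, an antiproliferative early gene, read at most 79.4 in any array.

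The phosphatases did not share a direction. Dusp1, the nuclear phosphatase of p38 and JNK that limits cytokine production in macrophages, read 1003 in knockout co-culture and 658 in knockout separate culture, and 1140.1 in wild-type co-culture and 833 in wild-type separate culture. It was 1.52-fold and 1.37-fold higher, with both co-culture arrays above both separate ones. Dusp6, the cytoplasmic phosphatase of ERK, was 1.15-fold and 1.27-fold lower, at 3686 and 4225 in knockout co-culture and separate culture and 3629.8 and 4598 in wild-type co-culture and separate culture. Dusp4, which acts on ERK and JNK in the nucleus, was 1.20-fold and 1.16-fold lower, at 4136 and 4949.5 in knockout co-culture and separate culture and 4126 and 4778 in wild-type co-culture and separate culture. Dusp5, the nuclear ERK phosphatase, was slightly higher, by 1.09-fold and 1.16-fold. The ERK phosphatases thus differed in sign, but by small ratios of single arrays that were not tested. Dusp2 was level at log2 ratios of 0.07 and 0.01, and Dusp8 lay under the floor.

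Dusp10, a phosphatase of JNK and p38, was the exception in the knockout. It read 390.0 in knockout co-culture and 209 in knockout separate culture, and 506 in wild-type co-culture and 449 in wild-type separate culture. The ratio was 1.86-fold in knockout and 1.13-fold in wild type, and the knockout separate array was the one that stood apart. The second probe set of Dusp10 read 241 and 194 in knockout co-culture and separate culture and 235 and 228 in wild-type co-culture and separate culture, 1.24-fold and 1.03-fold higher.

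The genotype comparison asks what the loss of Dectin-2 did to these genes within each culture condition. In co-culture 0 of 32 genes were at least 2-fold higher or lower in knockout, where 0.144% and 0.0962% of 10399 genes were. At 1.5-fold the count was 1 higher, Fosb at 116 in knockout and 75.1 in wild type, at least 1.53-fold, against 1.51% of all genes, and 0 lower, against 1.48%. In separate culture Dusp10 was 2.15-fold lower in knockout, the only one of 32 genes, against 0.116% of 10362 genes, and 0 were higher, against 0.0869%. The second probe set of Dusp10 was 1.17-fold lower there, and with the median over both the 2-fold call was lost. At 1.5-fold Dusp10 was still the only one lower, against 1.05%, and 0 were higher, against 1.74%. The median log2 ratio was 0.02 in co-culture and -0.02 in separate culture. Ier3 was 1.01-fold higher in knockout co-culture and 1.17-fold higher in knockout separate culture, and Klf2 1.19-fold and 1.10-fold higher.

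**Figure D4:**
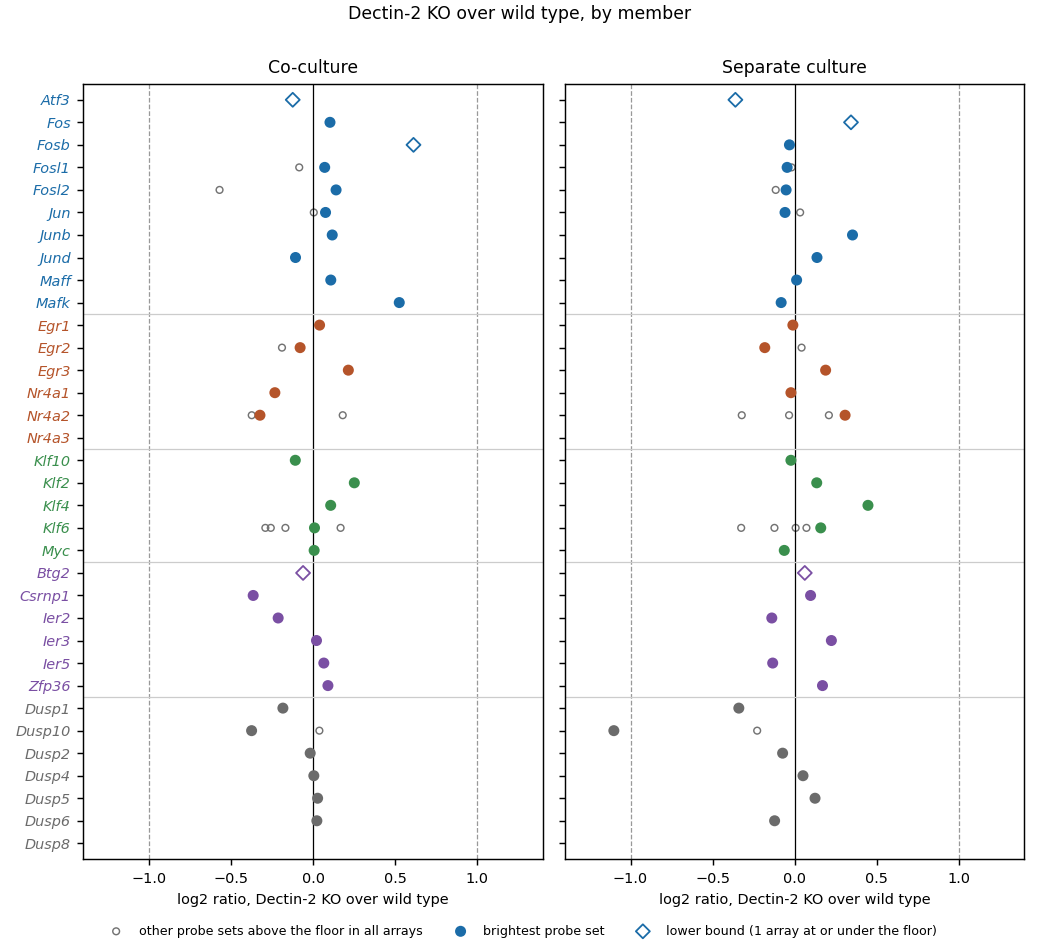
Log2 ratio of Dectin-2 KO over wild type for each gene, in co-culture on the left and separate culture on the right, with symbols as in the plot of co-culture ratios. Dusp10 in separate culture, at -1.10, is the only brightest probe set past a dashed 2-fold line, and its second probe set lies at -0.23.

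The co-culture change in knockout minus that in wild type measures the dependence of the response on the genotype, and it differed at least 2-fold for 0 of 32 genes. Over 10637 genes 0.432% were that much higher and 0.62% that much lower. At 1.5-fold the difference was positive for 3 genes, against 2.6% of all genes, and negative for Nr4a2, at -0.63 on the log2 scale, against 4.32%. For Dusp10 and Mafk, at 0.73 and 0.61, the gene was higher in co-culture in both genotypes and more so in knockout. For Fosb, at 0.64 or more, it was lower in co-culture in both, at -0.17 in knockout and at most -0.81 in wild type, where the co-culture signal of 75.1 was under the floor. The second probe set of Dusp10 gave a difference of 0.27. The Nr4a2 difference held in its brightest probe set, while the other 3 measured ones gave -0.03, -0.01 and -0.34. For Ier3 the difference was -0.20 and for Klf2 0.12. For Fosl2 it was 0.19 in the brightest probe set and -0.46 in the second, so its sign depended on the probe set. As a scale for these values, the middle 95% of all genes lay between -0.71 and 0.59.

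Probe sets of the same gene gave a repeat within the arrays. In 7 genes there were other probe sets above the floor in all arrays, which made 24 ratios to set beside the brightest. The sign was the same in 20 of them, and the median absolute difference of the log2 ratios was 0.15 and the largest 0.60. Log2 ratios smaller than that median lie within the disagreement between probe sets of 1 gene. Between the genotypes, the middle 95% of all genes lay between log2 ratios of -0.51 and 0.48 in co-culture and between -0.44 and 0.53 in separate culture.

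Genes around the 34 in the same pathways were followed through 5 further lists. Over all genes 0.67% were 2-fold higher in co-culture and 0.574% lower in knockout, and 0.701% and 0.538% in wild type. A count of 0 in lists of this size lies close to those shares. At 1.5-fold the shares were 2.5% and 4.28% in knockout and 3.31% and 3.39% in wild type. Of 23 genes of the MAP kinase cascade on the array 21 lay above the floor in each genotype and 0 were 2-fold apart in either genotype, with medians of 0.06 in knockout and 0.03 in wild type. Its brightest members, Nras and Mapk14 (the p38alpha gene), had log2 ratios between -0.13 and 0.21. At 1.5-fold 1 was higher in each genotype, Mapk13 at 139 and 71.7 in knockout co-culture and separate culture and Mapkapk2 at 189 and 104 in wild-type co-culture and separate culture, both near the floor and named after their values were seen. Mapkapk2 was dimmer in co-culture in knockout, at 129 and 156 in co-culture and separate culture, so that its co-culture change differed by -1.14 between knockout and wild type. Of the transcription factors upstream of early genes and their partners, 16 genes in knockout and 15 in wild type, only Crem was 2-fold apart. Crem, which encodes cAMP-responsive activators and the inducible repressor ICER, read 654 in knockout co-culture and 263 in knockout separate culture, and 679 in wild-type co-culture and 260 in wild-type separate culture. It was 2.49-fold higher in knockout and 2.62-fold higher in wild type, and a second probe set read 418 and 165 in knockout co-culture and separate culture and 355 and 128 in wild-type co-culture and separate culture. By contrast, Atf4 and Elk4, the brightest of the list, lay between -0.11 and -0.01.

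Feedback genes outside the 34 were followed through a pair of lists. Of 12 genes listed as other feedback inhibitors of the ERK pathway 0 were 2-fold apart, close to the share over all genes. The medians were -0.17 in knockout and -0.20 in wild type. This list also held Etv4 and Etv5, which encode transcription factors. Spry1, a Sprouty inhibitor of receptor tyrosine kinase signalling, read 312 in knockout co-culture and 594 in knockout separate culture, and 293 in wild-type co-culture and 479 in wild-type separate culture. It was 1.90-fold and 1.63-fold lower and was named after its values were seen, as the only one of the list 1.5-fold apart. The brightest, Errfi1 and Phlda1, had ratios between 0.02 and 0.26. Of 11 other dual-specificity phosphatases 0 were 2-fold apart, again close to the share over all genes. Their medians were 0.10 and 0.04, with 7 of the 11 above 0 in each genotype. Among them Dusp16, a JNK phosphatase and 1 of the 2 brightest, was 1.56-fold and 1.60-fold higher. Dusp9, the other of the brightest, had log2 ratios of 0.10 in knockout and -0.07 in wild type. At 1.5-fold 2 genes were higher in knockout and 1 in wild type. Besides Dusp16 this was Dusp3, 1.55-fold higher in knockout but 1.11-fold lower in wild type, and named after its values were seen.

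The list of other early genes had medians of 0.16 over 31 genes in knockout and 0.17 over 30 in wild type. In knockout 2 were at least 2-fold higher, Cebpb and Gadd45b, against 0.67% of all genes. In wild type 0 were 2-fold apart, against 0.701% of all genes higher and 0.538% lower. At 1.5-fold 4 were higher and 0 lower in knockout, against 2.5% and 4.28% of all genes. In wild type 3 were higher and 1 lower, against 3.31% and 3.39%. Cebpd was at least 1.90-fold and 1.78-fold higher in knockout and wild type, and Plk2 1.53-fold and 1.57-fold. Ccn2 was 1.63-fold lower in wild type. All these genes were named after their values were seen. Cebpb, a transcription factor of inflammatory gene expression, read 1334 and 612 in knockout co-culture and separate culture and 1218 and 649.7 in wild-type co-culture and separate culture, 2.18-fold and 1.88-fold higher. Gadd45b, a stress gene of the p38 and JNK pathways, read 216 and 83.0 in knockout co-culture and separate culture and 300.2 and 221 in wild-type co-culture and separate culture, 2.60-fold and 1.36-fold higher. Like Dusp10, it was dimmest in the knockout separate array, 2.66-fold lower than in wild-type separate culture. Its other 2 probe sets did not show this, with 132 and 130.4 in knockout separate culture and 126 and 131 in wild-type separate culture. In knockout co-culture they read 196 and 185, short of 2-fold, so the 2-fold co-culture call of Gadd45b depended on the probe set. Mcl1 and Zfp36l2, the brightest of the list, had ratios between -0.12 and 0.04.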

How the data were processed

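The authors deposited 1 table of linear intensities, 1 value per probe set and array, made with Affymetrix Expression Console 1.4 and MAS5, per the submitters' processing notes. MAS5 subtracts background and scales each array, and with 2% of each tail trimmed the mean was 497 or 498 in all 4. Values are thus relative within an array. Per the labels' protocols, 20 ng of RNA went into a whole-transcriptome amplification for each array. No detection calls were used here.

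Of 45037 probe sets, 34945 had 1 gene symbol in the platform annotation, 932 several and 9160 none. RefSeq (GRCm38.p6, names only) matched 34741 by Entrez number and changed 0 symbols. Calculations used Python 3.11.15, numpy 2.4.6 and pandas 2.3.3, and were tested on simulated data. The 34 genes, the gene lists and the promoter motifs were chosen with earlier results of these data known. Named genes are the 34, and of each other list those 2-fold apart in the same direction in both genotypes and the 2 brightest. An additive fit of culture and genotype, with genotype as a block, was not made. Alternatives were no floor, a minimum of 4 times the floor for the brighter array, quantile normalization, the median over probe sets, centring on the median gene and a 1.5-fold limit. Leaving out probe sets ending in _s_at or _x_at was added after seeing the data.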

Additional observations from a re-analysis of the deposited data

Results flagged for a closer look

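The co-culture change pointed in opposite directions in the genotypes for 4 genes that exceeded the floor in every array, a difference that was not tested with 1 array per group. For Csrnp1 the log2 ratio was -0.02 in knockout and 0.45 in wild type, a difference of -0.46. For Klf6 it was -0.06 in knockout and 0.09 in wild type, a difference of -0.15. For Jun it was 0.00 in knockout and -0.13 in wild type, a difference of 0.13. For Egr2 it was 0.04 in knockout and -0.06 in wild type, a difference of 0.10. The second probe sets of Jun, at -0.15 in knockout and -0.12 in wild type, and of Egr2, at -0.43 and -0.20, were negative in both genotypes. The other 4 probe sets of Klf6 lay between -0.22 and 0.20 in knockout and between 0.01 and 0.15 in wild type. In the brightest probe sets of these 4 genes only Csrnp1, in wild type, had a log2 ratio larger in size than 0.15, the median disagreement between probe sets of a gene. The largest such disagreement was 0.60, which the Csrnp1 ratio did not exceed.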

How the results depend on the processing

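Of 361 recomputed log2 ratios of single genes, 348 moved by less than 0.18, the spread of the genotype ratios over all genes, which stands in for replicates. The other 13 moved by more, 11 of them with the median over probe sets, and 0 ratios past 2-fold changed sign. Many of the 361 could hardly move, so the share is no measure of stability. The minimum of 4 times the floor, with 46 of the ratios, only leaves genes out. Removing the floor cannot change the 28 genes above it in all arrays. The median over probe sets cannot change the 19 genes with 1 probe set. Ier3 was called in both genotypes under all 7 alternatives. In wild type Nr4a2 was lost with the median over probe sets and without _s_at and _x_at probe sets, Klf2 was lost with a minimum of 4 times the floor, and Fos was added without the floor. With the 1.5-fold limit the counts of genes called were 8 in knockout and 6 in wild type for co-culture over separate culture, 1 for knockout over wild type in co-culture and 4 for the difference of the co-culture changes. With the median over probe sets the count for knockout over wild type in separate culture was 0, since Dusp10 was no longer called. The median log2 ratio lay between 0.10 and 0.20 in knockout and between 0.15 and 0.19 in wild type. Over all genes, the share called was 18.1% in knockout and 19.4% in wild type without the floor and 1.24% in both with it, since dim probe sets enter without it. The labels give no replicate numbers to pair arrays by, and a fit over both genotypes with genotype as a block was not made. Signals near the floor limit Fos, Fosb, Junb, Atf3, Btg2, Nr4a1 and Klf2.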
